A study of Drosophila melanogaster with 11 samples.

Results

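The unnamed genes of the early Drosophila embryo are genes that FlyBase lists only under a systematic symbol, CG followed by digits, and whose RNA was high at 2–4 h after egg deposition and low in every later window measured. A gene was a member if its mean TPM (the level of a gene per length of its span, scaled to the same total in every library) was at least 10 at 2–4 h and if its mean TPM at 14–14.5 h, 14–17 h and 17–17.5 h was each at most 10% of that value. Members were thus selected on their measured mean TPM in all windows. Of 17753 genes in all, 6043 carry such a symbol, 1633 of these reached 10 TPM at 2–4 h, and 98 met both limits. A further 364 genes with another symbol, or none, met the same limits.

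PolyA RNA of whole wild-type Oregon-R embryos was sequenced in bulk. The 2–4 h window had 3 libraries, the 14–14.5 h window 2, the 14–17 h window 4 and the 17–17.5 h window 2, and the replicates came from separate collections on different days. No mutant, transgene or treatment was used. Totals ran between 14472809 and 38904916 estimated counts, and the lowest belonged to replicate 2 at 2–4 h. In whole embryos, a smaller share of cells of a type and less RNA per cell cannot be told apart.

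Between 2 and 4 h the fly embryo passes through the last syncytial divisions, forms cells and starts gastrulation. RNA loaded by the mother is degraded in this period, while the embryo begins to transcribe its own genome. The first genes transcribed are often short and lack introns. By 14 h the organs are formed and the tissues differentiate. Polyadenylated RNA at 2–4 h can come from the mother or from the embryo, and these libraries do not tell the sources apart.

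Summed TPM of gene lists separated 2–4 h from the later libraries, although single libraries and genes departed from their list. Among 12 genes of differentiated muscle, neurons and epidermis, summed TPM was between 3677 and 7549 in the later libraries, against 61.2, 7.35 and 9.60 at 2–4 h. Of these genes, Osi6 had 20.7 TPM in replicate 1 at 2–4 h, against 0.478 and 0.0321 TPM in replicates 2 and 3. Among 17 early zygotic genes such as bnk and slam, summed TPM was 75.2 to 114 in the later libraries, against 4238 to 4782 at 2–4 h, and 12 of them met the TPM limits used here. Of 19 maternal RNAs, 3 met those limits, but only 13 of the 19 reached 10 TPM at 2–4 h, against 16 of the 17 early zygotic genes. Summed TPM of the maternal list was 693 to 857 at 2–4 h, 329 to 435 at 14–17 h and 142 to 239 in the narrow windows (14–14.5 h and 17–17.5 h). In this list, smg averaged 202 TPM at 2–4 h and 126 TPM at 14–17 h, and gcl rose from 28.1 TPM at 2–4 h to 125 TPM at 14–14.5 h. The members and the 2 lists were chosen with results of these data known.

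Because the rule used the means of all windows, the difference between 2–4 h and later is given as a description, without a test. Together the 98 members held 24746, 25026 and 25285 TPM in the 3 libraries at 2–4 h, or 2.502% ± 0.0269 (SD, n = 3) of the total. Their sum was 265 and 255 TPM at 14–14.5 h. It was 308, 462, 371 and 328 TPM at 14–17 h, and 264 and 159 TPM at 17–17.5 h. The share of the total depended on the length used: it was 1.63% by exonic length and 0.882% of all counts, where no length enters. The deposited TPM divides by the whole span of a gene with its introns, after a correction for fragment length that the exonic values lack. The part of each in the difference was not tested.

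Levels at 2–4 h spanned from 10.03 TPM for CG30428 to 5547 TPM for CG13427, with a median of 77.2 TPM. The 5 members CG13427, CG4440, CG10035, CG14915 and CG13465 lay above 1000 TPM, and 40 members lay at or above 100 TPM. The 3 most abundant held 41.8% of the members' TPM and the 12 most abundant 70.2%. By exonic length, 9 of these 12 were again among the 12 most abundant.

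**Figure D1:**
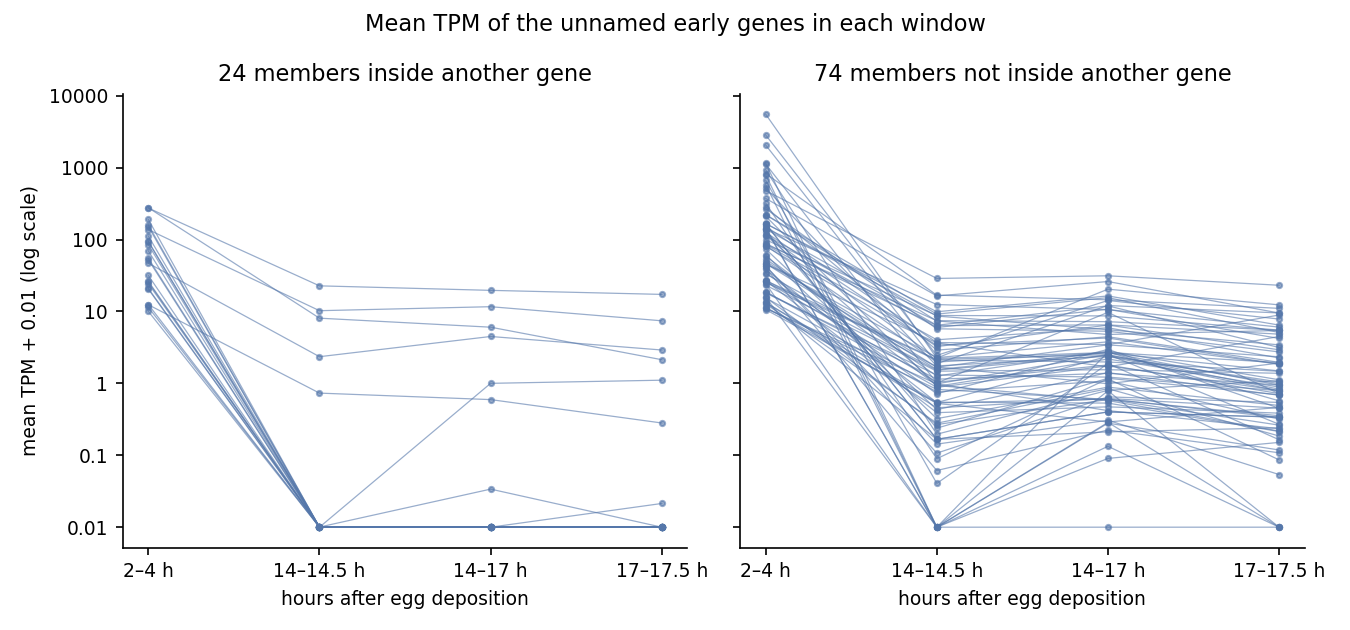
Mean TPM of each member (line) at 2–4 h, 14–14.5 h, 14–17 h and 17–17.5 h, on a log axis after adding 0.01, for the 24 members whose span lies wholly inside another gene (left) and the other 74 (right). Most lines of the left panel drop to 0 in all later windows, whereas in the right panel 1 line lies at 0 in all later windows.

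The most abundant member was CG13427 (FBgn0034514, chromosome 2R, 20538877 to 20539316, minus strand, dm6), a gene of 1 exon whose annotated protein has 105 residues. It had 5793, 5113 and 5736 TPM at 2–4 h. In the later libraries it had 3.85 and 0.614 TPM at 14–14.5 h, 8.78, 25.8, 28.9 and 18.1 TPM at 14–17 h, and 23.2 and 1.49 TPM at 17–17.5 h. The 2 libraries of each narrow window were thus far apart, although every later library lay under 1% of the early mean.

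CG4440 (FBgn0040984, 2L, 16329925 to 16330521, plus strand) followed, with 2 exons and 79 residues. It had 3024, 2769 and 2769 TPM at 2–4 h, and its later means were 2.44 TPM at 14–14.5 h, 14.22 TPM at 14–17 h and 7.83 TPM at 17–17.5 h. CG10035 (FBgn0038028, 3R, 12380869 to 12382691, minus strand), with 286 residues, had 2108, 1969.7 and 2124 TPM at 2–4 h. Its later means were 1.87, 12.1 and 9.53 TPM in the same order of windows. Both genes repeated the split of CG13427 at 17–17.5 h, where CG4440 had 14.9 TPM in replicate 1 and 0.724 TPM in replicate 2, and CG10035 had 18.7 and 0.355 TPM.

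CG14915 (FBgn0032335, 2L, 11071027 to 11071532, plus strand) was among the most sharply confined of the abundant members. It had 1052, 1316 and 1128 TPM at 2–4 h, 0 TPM in the libraries of both narrow windows, and 0.457, 0.847, 0.494 and 1.31 TPM at 14–17 h. Its neighbor CG43725, 3980 bp further along the same strand, had 463, 757 and 518 TPM at 2–4 h. Of the 8 later libraries, CG43725 was detected in 2, at 0.322 TPM in replicate 2 at 14–17 h and 0.282 TPM in replicate 1 at 17–17.5 h. An antisense RNA, CR46264, overlaps 87.0% of the span of CG14915, and without strand the reads of the 2 genes cannot be told apart.

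CG13465, a gene of 1 exon with 78 residues, had 1091, 1136 and 1152 TPM at 2–4 h. CG34214 had at most 1.25 TPM in any later library, against 920.2, 921 and 960.1 TPM at 2–4 h. CG43184, with 81 residues, had 0 TPM in both libraries at 14–14.5 h, against 639, 1008 and 744 TPM at 2–4 h. Replicate 2 at 2–4 h stood apart from the others for CG43184 and close to them for CG13465 and CG34214.

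CG7271 had a mean of 667 ± 41.8 TPM at 2–4 h (SD, n = 3) and CG34224 one of 515 ± 7.07 TPM. Their highest later values were 2.85 and 4.72 TPM. The abundant members CG8960 and CG2915 kept more RNA. CG8960 averaged 828 ± 44.0 TPM at 2–4 h, 16.9 ± 0.470 TPM at 14–14.5 h, 14.5 ± 2.12 TPM at 14–17 h and 11.03 ± 4.35 TPM at 17–17.5 h (SD, n = 3, 2, 4 and 2). CG2915 averaged 479 TPM at 2–4 h and 28.8, 31.3 and 23.1 TPM in the later windows, at most 6.541% of its early level.

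**Figure D2:**
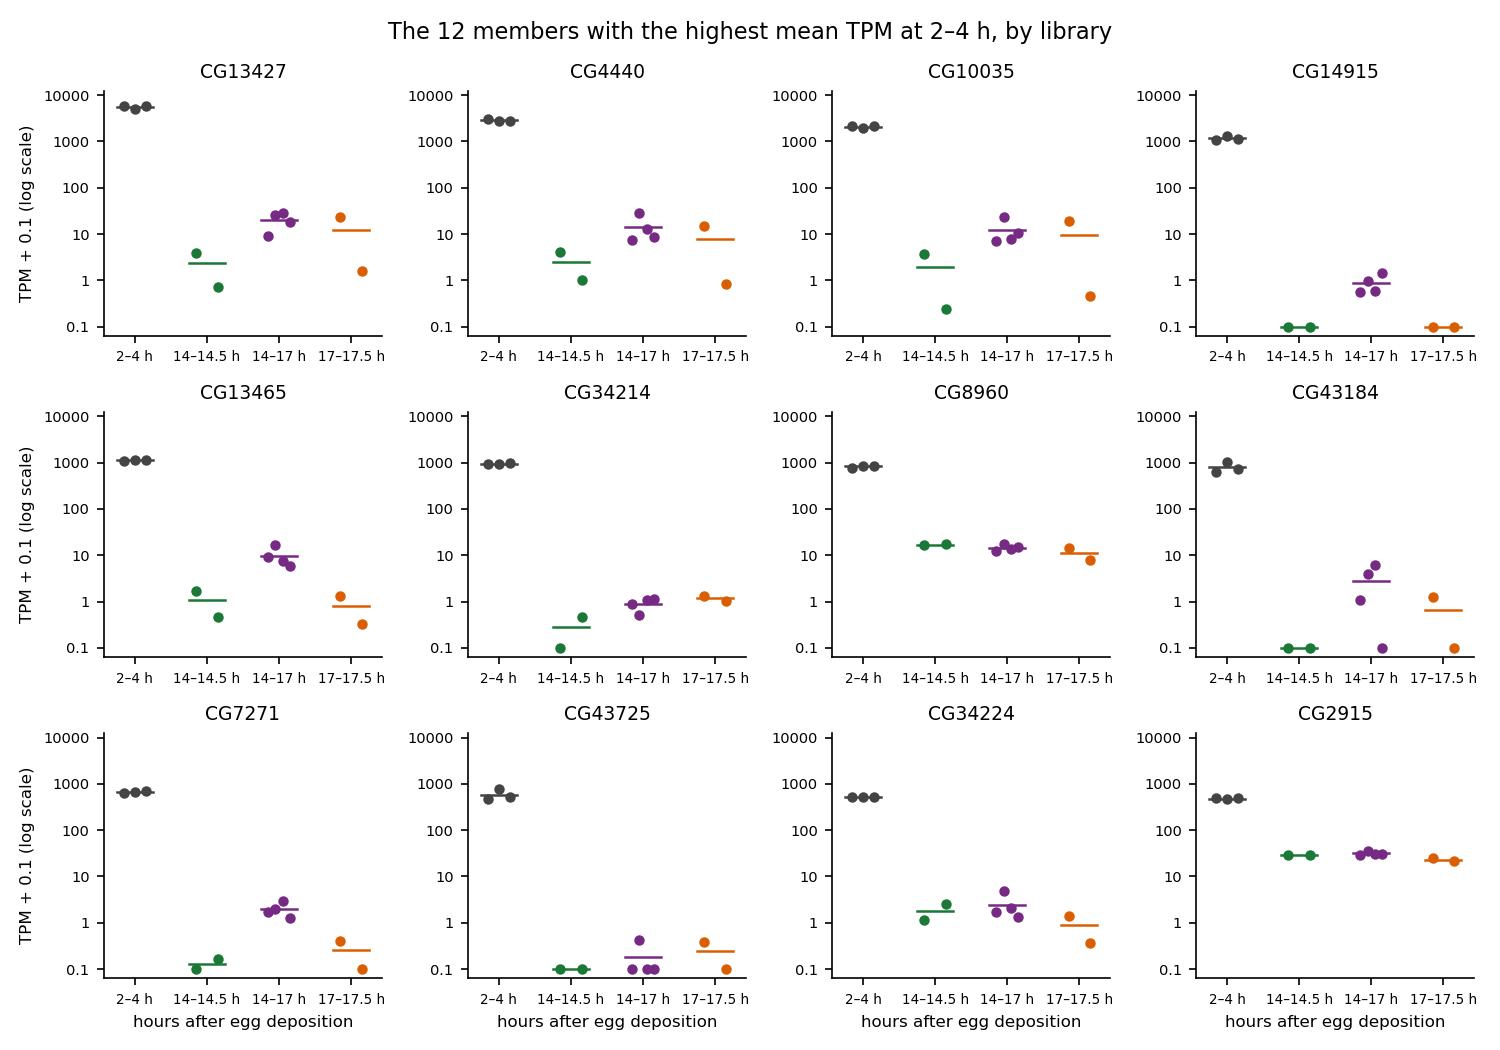
TPM of the 12 members with the highest mean at 2–4 h in each of the 11 libraries (points) with the mean of each window (bars), on a log axis after adding 0.1. The early points lie close together for most genes and are wider for CG43184 and CG43725 (CV of 23.9% and 26.9%), while CG13427, CG4440 and CG10035 differ more than 10-fold between the 2 libraries at 17–17.5 h.

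The members differed in how much RNA remained. In 37 members the mean of every later window lay under 1% of that at 2–4 h, in 20 the largest later mean was 1% to 5%, and in 41 it was 5% or more. The median member had 1.60% of its early TPM at 14–14.5 h, 2.17% at 14–17 h and 1.35% at 17–17.5 h. Over the 74 members not inside another gene, these medians were 2.36%, 3.26% and 1.90% in the same order of windows. Of the 98, 43 members kept a mean of at least 1 TPM at 14–14.5 h, 53 did so at 14–17 h and 38 did so at 17–17.5 h.

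The 41 members with most RNA left had a median of 46.7 TPM at 2–4 h, against 135 TPM for the 37 with least. The classes were cut on a share whose denominator is the 2–4 h level, so this difference can follow from the cut itself. Of the 41, 9 lacked introns and their median protein had 347 residues. Of the 37 with least RNA left, 24 lacked introns and the median protein had 161 residues. However, 18 of the 37 lie inside another gene, to which their later reads can be assigned (below). Among the 19 that do not, 14 lacked introns and the median protein had 148 residues. In the class with most RNA left, 36 do not lie inside another gene. Of these, 9 lacked introns and the median protein had 340 residues. The 6 with the highest share at 14–17 h were CG5235 with 9.87%, CG13373 with 9.56%, CG30105 with 9.40%, CG16734 with 9.29%, CG30383 with 9.24% and CG31517 with 9.05%. CG5235 had 160, 183 and 157 TPM at 2–4 h, 9.60 and 10.2 TPM at 14–14.5 h, 12.8, 21.1, 17.18 and 14.7 TPM at 14–17 h, and 7.83 and 5.08 TPM at 17–17.5 h.

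Some members of this class have annotated relatives. CG4849, listed by RefSeq under the synonyms EFTUD2 and Snu114, belongs to the GTPase family of the U5 spliceosome particle and kept 8.53% at 14–17 h. CG13690, the catalytic subunit of ribonuclease H2, kept 5.14% at 14–14.5 h. CG3430, which encodes a relative of the MCM-binding protein of DNA replication, kept 5.29% at 14–17 h. CG11403, with the synonym Chl1, a DNA helicase of the DDX11 family, kept 7.40%, and CG18190, of the EB1 family of microtubule end-binding proteins, kept 8.37%. These were picked for their annotation after the values were seen.

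At the limits of the rule, values on both sides were close. CG30428, CG11756 and CG5665 had 10.03, 10.61 and 11.003 TPM at 2–4 h and were members, whereas CG32679, CG13716 and CG7208 had 9.85, 9.24 and 9.05 TPM and were not. CG5235, CG14036 and CG13373 had largest later shares of 9.87%, 9.78% and 9.56%. CG30080 and CG42662, which shared the same values, had 10.1% and CG8142 had 10.2%, and all 3 fell outside.

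Position in the genome bore on what could be measured. The authors' index covered the whole span of each gene, and the span of 24 members lies wholly inside that of another gene, on the opposite strand for 15 and on the same strand for 9. Of these 24, 18 had fewer than 0.5 estimated counts in each of the 8 later libraries. Of the other 74 members, 1 did. In those 18, the enclosing gene had between 0.860 and 52.1 TPM at 14–17 h. CG9839 lies in CCT7, a chaperonin subunit gene with 60.4 TPM at 2–4 h and 50.1 TPM at 14–17 h. CG9839 had no counts in the later libraries, against 27.5, 43.7 and 24.0 TPM at 2–4 h. CG8679, with the synonym dLEM3, lies in Atg18b, an autophagy gene with 7.63 TPM at 2–4 h and 26.0 TPM at 14–17 h. CG8679 had no counts in the later libraries, against a mean of 25.5 TPM at 2–4 h. Reads from such a member can be assigned to the enclosing gene, and reads from that gene to the member, at 2–4 h as well as later. Whether they were was not tested, so no fold is given for these 18.

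The 1 member at 0 outside another gene was CG14452, with 28.4, 10.4 and 8.73 TPM at 2–4 h from 108, 19 and 34 counts. Against a floor of 3 counts in each 14–17 h library, it was at least 21.0-fold lower at 14–17 h than at 2–4 h. Without replicate 1 at 2–4 h its early mean was 9.57 TPM, under the limit of the rule, and that bound was 12.7-fold. Its early replicates had the largest spread of all members, with a CV of 68.8%.

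Of the enclosed genes, 4 lie within RhoGEF64C on 3L, which spans 4692783 to 4796253. They are CG15876, CG13713, CG13712 and CG13711, which RefSeq lists under the synonyms HL3, HL2, HL4 and HL5. Each has 1 exon, and their proteins have between 99 and 138 residues. CG15876 (4694205 to 4694845, minus strand) had 178, 187 and 206 TPM at 2–4 h. CG13713 (4697601 to 4698058, plus strand) had 73.2, 101.2 and 80.6 TPM, and CG13712 and CG13711 averaged 54.7 ± 8.16 and 69.6 ± 13.3 TPM (SD, n = 3). The enclosing gene had 2.01 TPM at 14–17 h, against 0.257 TPM at 2–4 h. Because reads can be assigned to the 4 genes or to the enclosing gene, its values do not measure the span around them separately. Another member, CG34266, lies 16.4 kb before CG15876 inside axo and had 88.0, 104 and 91.7 TPM.

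In all, 15 members lay within 10 kb of another member, in 9 pairs. CG31131 and CG31253 on 3R had identical values in all 11 libraries, with 156, 180.2 and 159 TPM each at 2–4 h. Reads shared by both could have been divided between them, which was not tested. CG43355 and sala share one span and the same counts, as do CG34315 and Orc3, an origin recognition complex subunit gene. For these 4 members the level belongs to the pair of genes. In other pairs the levels differed: CG34214 averaged 934 TPM and its neighbor CG30161 averaged 13.3 TPM, and CG14014 averaged 321 TPM and CG18269 averaged 39.9 TPM.

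All 98 members are protein coding, with 22 on 2L, 22 on 3L, 19 on 3R, 18 on X and 17 on 2R. Of the members, 41 (41.8%) lacked introns, against 38.6% of the 332 other protein-coding genes that met the TPM limits, 20.3% of the 6043 unnamed protein-coding genes, 15.4% of all protein-coding genes and 11.1% of those with at least 10 TPM at 2–4 h. The median protein had 263 residues in members, 386 in the other genes that met the limits, 308 in all unnamed protein-coding genes and 392 in all protein-coding genes. The share wholly inside another gene was 24.5% of members, 15.1% of the other genes that met the limits and 19.6% of all unnamed protein-coding genes. It was 13.8% of all protein-coding genes and 6.08% of those with at least 10 TPM at 2–4 h. These features are given as a description, without a test.

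Replicates at 2–4 h were close for most members. The CV over the 3 libraries had a median of 7.63%, and it was under 10% for 65 members. It was above 25% for CG14452, CG43332, CG9839, CG43725 and CG42762. CG43332 had 39.2, 20.1 and 40.7 TPM, while CG42762 had 76.0, 121 and 82.6 TPM. Replicate 2, the library with the fewest counts, was thus the one apart for 4 of these 5, low for CG43332 and high for CG9839, CG43725 and CG42762.

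Replicate 2 exceeded the mean of replicates 1 and 3 by more than 1.2-fold for 13 members (13.3%). The same held for 3.59% of all 5926 genes with at least 10 TPM at 2–4 h and for 5.22% of the other genes that met the limits. It was more than 1.2-fold below that mean for 12 members (12.2%), against 11.6% of all such genes. Of the 13 that were higher, 11 were among the 37 members with less than 1% left in every later window, 9 lacked introns and 6 lay inside another gene. Replicate 1 held more RNA of differentiated tissues than the others (above), and replicate 2 differed in depth. The part of either in these differences was not tested.

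**Figure D3:**
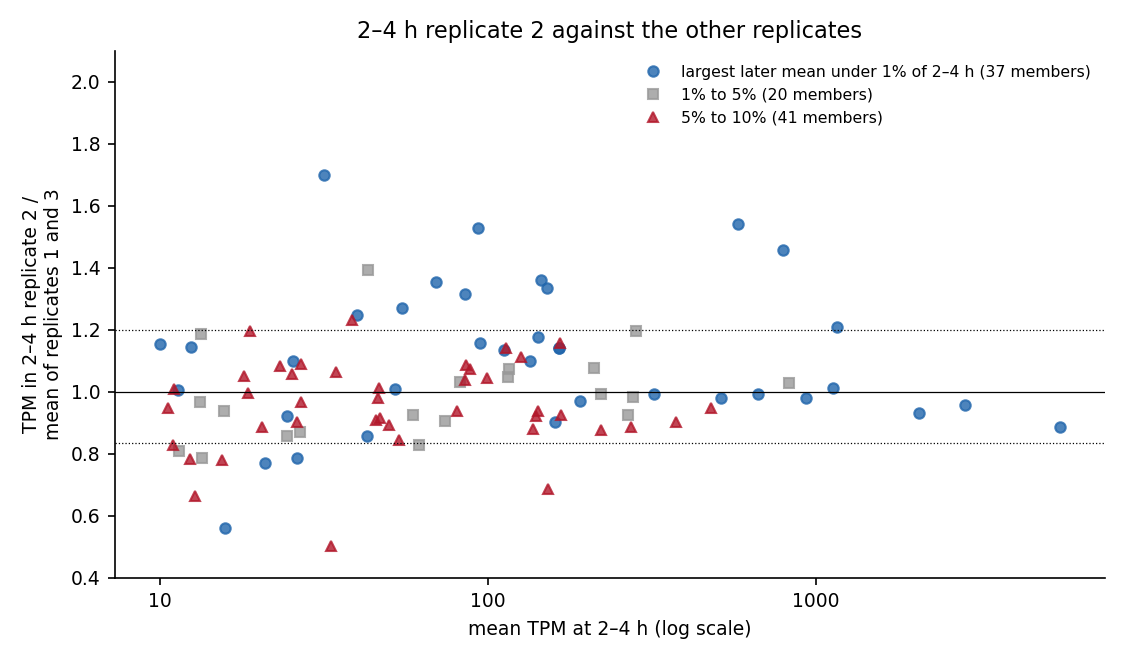
TPM in 2–4 h replicate 2 divided by the mean of replicates 1 and 3, against the mean TPM at 2–4 h on a log axis, with 1 point per member. Symbols mark the largest later mean as a share of 2–4 h, and dotted lines mark 1.2-fold above and below. Most of the 13 points above the upper line have less than 1% of their early RNA later, and 6 of the 13 lie inside another gene.

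The rule capped each later mean at 10% of that at 2–4 h but set no order among the later windows. Differences among them were tested across all genes, on values that the cap had limited. Of the 98 members, 50 passed the filter on low counts, and among these 2 rose and 11 fell at 17–17.5 h relative to 14–14.5 h (edgeR's quasi-likelihood test, Benjamini-Hochberg adjusted p of 0.05, 2 against 2 libraries). Over all 11267 genes tested, 32.0% rose and 31.5% fell, beside 4% and 22% of the 50 members. The members' median log2 fold change was -0.25, beside -0.04 over all genes. Among the other genes that met the limits, 13 of 240 were higher and 51 lower.

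Fewer members were called without either 14–14.5 h library, but 1 library then stood for that window. The share of all genes called in such fits was not counted, so the drop cannot be set beside it. The members' median log2 fold change was -0.26 without replicate 1 at 14–14.5 h and -0.21 without replicate 2. Without replicate 1 or replicate 2 at 17–17.5 h it was -0.56 or -0.087. On the TPM scale the median of all tested genes was itself lower by 0.21 (log2, after adding 1), and values below are relative to edgeR's TMM scaling.

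CG4849 had 3.40 and 2.90 TPM at 17–17.5 h, against 6.55 and 6.29 TPM at 14–14.5 h, and the groups did not overlap. Its log2 fold change was -0.82 ± 0.13 (SE; edgeR's quasi-likelihood test, adjusted p = 0.0020). Of the 8 members named for this comparison, it was the 1 whose call held in all 9 alternative fits. Without 1 of the 14–14.5 h libraries the other 7 were past an adjusted p of 0.05 in no fit but that of CG9953 without replicate 2 (edgeR, adjusted p between 0.054 and 0.12 for the rest). CG9953 had 5.32 and 4.85 TPM at 17–17.5 h, against 9.59 and 8.79 TPM at 14–14.5 h (log2 fold change -0.64). CG7840 had 10.1 and 8.96 TPM, against 16.7 and 16.2 TPM (-0.58), and was lower in both later libraries.

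CG13690 had 4.23 and 2.61 TPM at 17–17.5 h, against 8.55 and 8.70 TPM at 14–14.5 h, and its log2 fold change was -1.12 ± 0.25 (SE; edgeR's quasi-likelihood test, adjusted p = 0.0098). CG43355, which cannot be told apart from sala, had 3.00 and 1.25 TPM, against 8.53 and 7.58 TPM (-1.72). CG16734 had 0.765 and 0.875 TPM, against 1.98 and 2.30 TPM (-1.16), and its call was also lost with DESeq2 (adjusted p = 0.089) and without replicate 1 at 17–17.5 h (edgeR, adjusted p = 0.068). The 5 others that were lower were CG34315, CG9662, CG5808, CG3430 and CG14561, with log2 fold changes between -1.17 and -0.47.

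Of the 2 that were higher, CG3502 had 1.105 and 0.968 TPM at 17–17.5 h, against 0.531 and 0.531 TPM at 14–14.5 h (log2 fold change 1.17 ± 0.25 (SE), edgeR's quasi-likelihood test, adjusted p = 0.0080). CG32512, which lies inside bves on the opposite strand, had 138 and 18.3 estimated counts at 17–17.5 h, against 0 and 0 at 14–14.5 h. It passed the filter only through the 17–17.5 h libraries, so its call is no support. Replicate 1 at 14–17 h also had 0 counts of CG32512 and the other 3 had 58.9 to 147, so libraries of one window were at 0 and well above it.

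Replicate 1 at 17–17.5 h stood apart from replicate 2. It held more TPM for 58 members and less for 20, and for 7 members with at least 1 TPM it held more than 10-fold as much. These include CG13427, CG4440 and CG10035 (above) and CG15480, with 17.198 TPM in replicate 1 and 0.630 TPM in replicate 2. Of the 12 genes of differentiated tissues, Osi6, Osi7 and Osi20 differed in the same way, with 125 and 1.04 TPM for Osi6, while the summed TPM of the list was 3713 in replicate 1 and 3677 in replicate 2. The counts of members were not set beside counts over all genes, and the part of the library in the members' values was not tested. With replicate 2 alone, the members' median log2 fold change was -0.56, and with replicate 1 alone it was -0.087.

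The 14–17 h window takes in the times of the 14–14.5 h window and ends where the 17–17.5 h window begins. A comparison of the 4 libraries at 14–17 h with the mean of the 14–14.5 h and 17–17.5 h libraries was added after the data were seen. Of 60 members that passed the filter, 10 did so only through the 14–17 h libraries, where they had to be higher, and they are left out of the counts. Of the other 50, 20 (40%) had more RNA at 14–17 h and 3 (6%) had less (edgeR's quasi-likelihood test, adjusted p of 0.05), beside 30.9% higher and 29.9% lower over the 11267 genes that passed in the narrow windows alone. The median log2 difference of the 50 was 0.54, against 0.01 over those genes. For 20 of the 50, every 14–17 h library lay above every library of the narrow windows, which held for 21.1% of those genes. In a fit blocked on replicate number, 11 of the 50 were higher and 2 lower. Among the other genes that met the TPM limits, 122 of 276 tested were higher in the main fit (44.2%) and 6 lower (2.17%). The 276 include genes that passed only through 14–17 h, where they had to be higher.

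The 14–17 h libraries differed from the narrow windows in other ways, since mitochondrial large ribosomal RNA took 10.02% to 12.2% of their TPM, against 5.89% to 6.49% in the narrow windows. At 2–4 h this RNA took 11.1% to 14.8%, also above the narrow windows. Of 15 maternal RNAs tested, 9 were higher at 14–17 h than in the narrow windows and 0 lower. Their median log2 difference was 0.70. Among 14 early zygotic genes tested, 6 were higher and 4 lower. Both counts include genes that passed only through 14–17 h, where they had to be higher. Window and library preparation cannot be told apart here. Replicate 2 at 14–17 h held the highest value of the 4 for 50 of the 80 members detected there, a count not made over all genes. Without that library, 14 of the 50 members that passed in the narrow windows alone were higher and 3 lower. The number higher was also 14 without replicate 1 at 14–14.5 h or replicate 2 at 17–17.5 h.

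CG4849 had 11.96, 13.7, 12.4 and 9.77 TPM at 14–17 h, above all 4 values of the narrow windows (log2 difference 1.24 ± 0.10 (SE), edgeR's quasi-likelihood test, adjusted p = 2.1e-05). CG3502 had 2.43, 2.30, 2.16 and 2.60 TPM, against at most 1.105 TPM in the narrow windows (1.51). CG7840 had 23.3, 29.4, 27.2 and 24.5 TPM, against at most 16.7 TPM (0.89), and CG9953 had 15.6, 19.0, 15.9 and 11.8 TPM, against at most 9.59 TPM (1.01). In all of these genes the groups were separate.

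The next values are a description, since CG31898, CG12420, CG7271 and CG13465 passed the filter only through the 14–17 h libraries. CG31898 had 2.56, 2.99, 2.57 and 3.73 TPM at 14–17 h, against 0.808 and 0.608 TPM at 14–14.5 h and 0.291 and 0.592 TPM at 17–17.5 h. CG12420 had 2.77, 2.34, 3.06 and 1.89 TPM, against at most 1.09 TPM. CG7271 had 1.19 to 2.85 TPM at 14–17 h, against at most 0.309 TPM. CG13465 had 9.12, 16.5, 7.30 and 5.90 TPM at 14–17 h, against 1.63 and 0.374 TPM at 14–14.5 h and 1.19 and 0.220 TPM at 17–17.5 h.

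The 3 members that were lower at 14–17 h were CG15628, CG43332 and CG14036. CG15628 had 4.71, 5.73, 4.68 and 3.98 TPM, against 7.18 and 7.55 TPM at 14–14.5 h and 6.10 and 4.75 TPM at 17–17.5 h, so the groups overlapped (log2 difference -0.57). CG43332 averaged 0.979 ± 0.187 TPM at 14–17 h (SD, n = 4), against 1.68 ± 0.315 TPM at 14–14.5 h and 1.90 ± 0.721 TPM at 17–17.5 h (SD, n = 2 each), with a log2 difference of -1.04. CG14036 had 2.60, 1.35, 2.22 and 0.562 TPM, against 3.59 and 3.71 TPM at 14–14.5 h and 4.74 and 4.22 TPM at 17–17.5 h (-1.40). The call of CG14036 was lost without either library at 14–14.5 h or without replicate 1 at 17–17.5 h (edgeR, adjusted p of 0.054 to 0.055), and in a fit blocked on replicate number (log2 difference -1.21, adjusted p = 0.062).

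**Figure D4:**
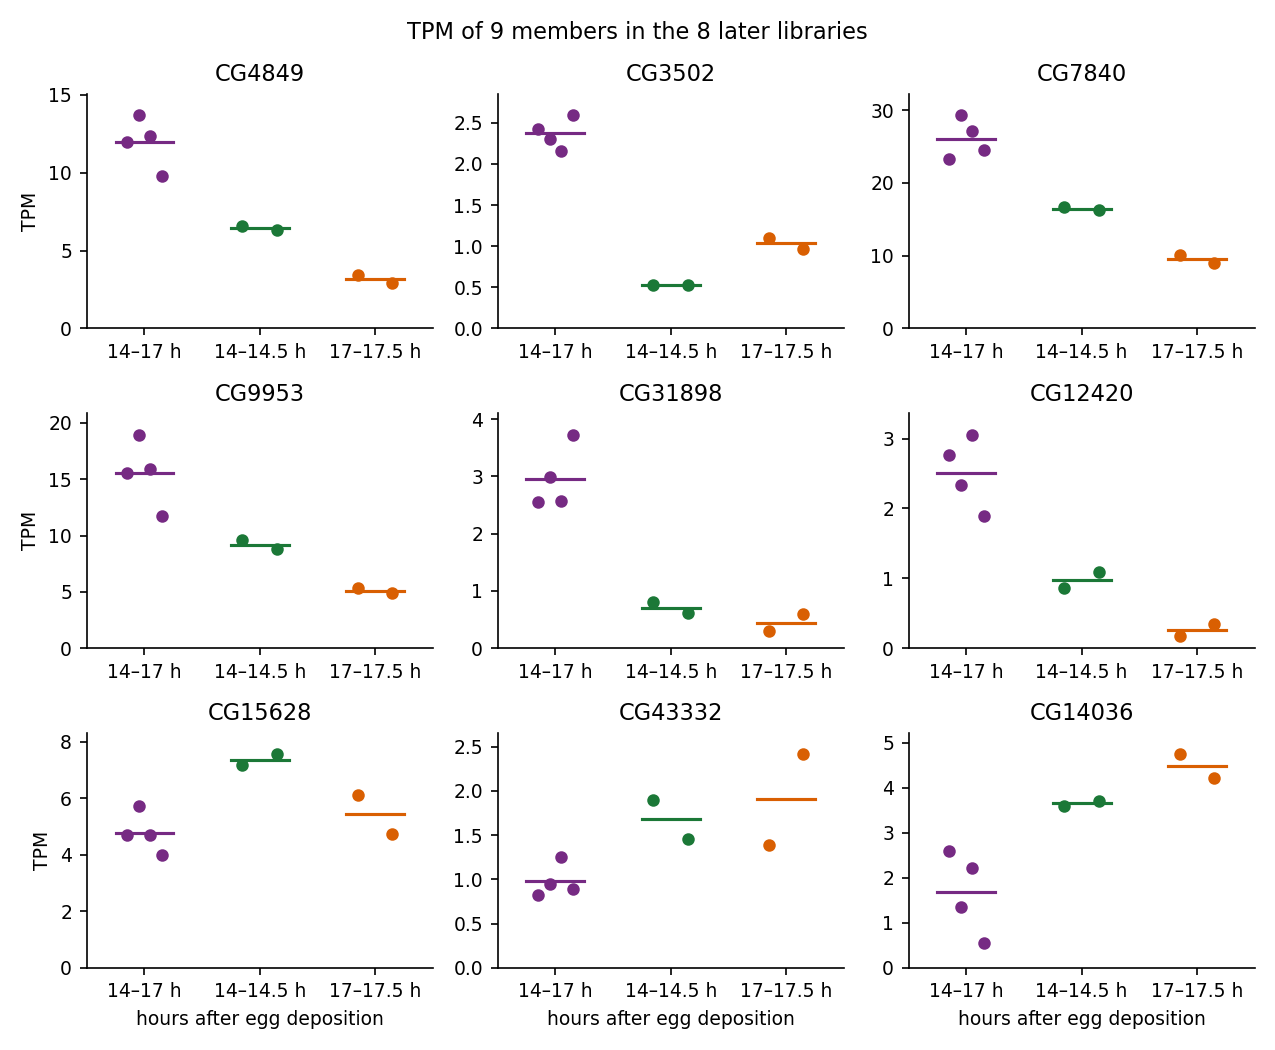
TPM of 9 members in the 4 libraries at 14–17 h, the 2 at 14–14.5 h and the 2 at 17–17.5 h (points), with the mean of each window (bars) on axes that start at 0. The 6 genes of the upper panels, of which CG31898 and CG12420 passed the filter only through 14–17 h, lie higher at 14–17 h than in the narrow windows, and the 3 of the bottom row have lower means.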

How the data were processed

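PolyA RNA of whole embryos was sequenced in 11 libraries, assigned to windows and replicates by their labels. For each gene, the authors deposited estimated counts from kallisto (the submitters' processing notes name CASAVA 1.8.2, kallisto and dm6; the kallisto version is not given in the sources used here), and the authors' TPM, which divides by the gene's span with introns. In all 98 members the deposited length equaled that span. Counts that were not whole (more than 0.01 from a whole number) made up 18.7% to 21.7% of a library. Gene models were those of Ensembl on dm6, which held 17625 of the 17753 genes, and synonyms those of RefSeq.

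Estimated counts were rounded and tested with edgeR 4.0.16 (R 4.3.3) using filterByExpr, TMM factors, the quasi-likelihood test and Benjamini-Hochberg adjustment, two-sided. Alternatives used DESeq2 1.42.0, RLE factors, no filter, all 11 libraries, a replicate block and left-out libraries. The fits were tested on simulated data. Python 3.11.15 and pandas 2.3.3 were used. Floors of 3 counts cover counting error only, since amplified reads are not independent molecules.

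The members, lists and rules were chosen with earlier results of these data known. Named genes are the 12 highest at 2–4 h, up to 6 called in each direction with the lowest adjusted p, the 6 with the highest share left at 14–17 h, the 5 with the largest CV and the 3 nearest each side of each limit. Genes named beyond these were chosen after their values were seen. Promoter motifs and protein sequences were not analysed here. Replicate numbers do not pair the libraries.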

Additional observations from a re-analysis of the deposited data

Results flagged for a closer look

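The 14–17 h window is the one with 4 libraries, and 31 values in it (30 members named in the text and the members' sum) were searched for a library far from the others, a search that by chance marks about 1 in 20. In 2 members there was such a library. CG13373 had 4.16 TPM in replicate 4, below the 4.54 to 4.61 TPM of the other 3. CG43725 had 0.322 TPM in replicate 2 and 0 in the other 3, a level near that of a single read.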

How the results depend on the processing

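The number of members was 226 with a later limit of 20% and 57 with one of 5%, against 98 with 10%. It was between 73 and 116 under the other alternatives, 73 with the limits met by every library, 93 by exonic length (90 shared) and 112 without mitochondrial genes, and between 96 and 101 with a library left out. The share of TPM at 2–4 h was 1.63% by exonic length (without correction for fragment length), 3.09% without mitochondrial genes and 0.882% as CPM, and 2.49% to 2.52% with a library left out. The median TPM left at 14–17 h was between 1.82% and 2.18% under the other length, scaling and left-out-library alternatives, but 3.26% over the 74 members not inside another gene.

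For 17–17.5 h over 14–14.5 h, the DESeq2 Wald test called 8 members (2 higher, 6 lower) against 13. The number called changed with a library left out, where the library left alone in its window was assumed to vary like the other window. The members' median was 0 with all 11 libraries fitted, when all 98 were tested, and -0.45 on the scale of log2(TPM + 0.1), where all genes had -0.25. It ran between -0.56 and -0.087 with a library left out. Among the members named for a test, leaving out those that passed only through 14–17 h, 144 of 163 alternative values kept their call and direction, 19 lost the call and 0 changed sign. CG32512, whose call is no support, is still in that tally, with 7 values kept and 2 lost. No sequence of promoters was at hand, so the window alternative was not run.

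With the replicate number as a block, 13 members were called for 17–17.5 h over 14–14.5 h (4 higher, 9 lower), and 18 against 29 for 14–17 h over the narrow windows (16 higher, 2 lower) over all 60 members tested, 10 of which passed only through 14–17 h. Without those 10, 11 were higher and 2 lower, against 20 and 3. Same-numbered libraries of the narrow windows did not deviate together (r = -0.043 across genes). Leaving out 1 of the 14–17 h libraries in the second comparison gave 14 to 19 higher and 3 lower of the 50 members that passed in the narrow windows alone. Members without an enclosing gene gave 10 and 28 calls, but the 28 include members that passed only through 14–17 h, where they had to be higher. The narrow windows had 2 libraries each, and members at few counts could not be tested. Shares of all genes called were not counted in the alternative fits.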
